A study of Mus musculus with 4 samples.

Results

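Retinal ganglion cells are the output neurons of the retina, and their axons form the optic nerve. The 10 genes described here are used to recognise these cells: the transcription factors Pou4f1, Pou4f2 and Isl2, the RNA-binding protein gene Rbpms, the vesicular glutamate transporter gene Slc17a6, the neurofilament genes Nefl, Nefm and Nefh, the synuclein gene Sncg and the surface glycoprotein gene Thy1. They were chosen by name, and all 10 were found, of 22558 gene symbols in the files, each as 1 locus. Values for all 10 exist in 3 libraries. In the day 1 DTA library a value exists for 2 of them, Nefh and Sncg, because that table holds 5799 symbols.

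RNA-seq was run on whole retina of mice aged about 8 weeks, of mixed C57BL/6 and 129 descent, with 4 libraries and 1 library per group. The DTA groups, sampled at day 1 and day 5 after injury, carried Msi1-CreERT2/+ and R26R-DTA/+. The control groups of the same days carried R26R-DTA/+ without Cre. R26R-DTA produces diphtheria toxin fragment A, which blocks protein synthesis, in cells where Cre has been active. CreERT2 is a Cre that works only with a ligand bound, here driven from Msi1, the gene of an RNA-binding protein. The sources used here do not say which retinal cells the toxin reached or how many mice went into a library.

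Ganglion cells pass visual signals on by releasing glutamate and carry them along long axons that are filled with neurofilaments. POU4F1 and POU4F2 (also called BRN3A and BRN3B) and ISL2 are homeodomain factors of ganglion cell identity, and POU4F2 is needed for the development of most of these cells. Several of the genes are also active elsewhere: neurofilaments in horizontal cells, Thy1 in T cells and Rbpms in vascular smooth muscle. In whole-retina RNA, fewer ganglion cells and less RNA per ganglion cell cannot be told apart.

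Values are FPKM, fragment counts relative to transcript length and to all fragments of the library. Differences are DTA minus control in log2(FPKM + 1). Without replicates there is no standard deviation, and no test was made. Calls asked for a size of 1 or more, for 5 FPKM or more in 1 of the compared libraries, and for a DTA difference larger in size than the same gene's difference between the 2 controls.

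None of the 10 ganglion cell genes was called at day 5. Over all genes that could be called, 8.51% were (842 of 9895), 6.74% higher and 1.77% lower. The largest difference in size among the 10 was -0.30, for Pou4f1. With the size asked of a call lowered to 0.5, still none of the 10 was called, against 31.1% of all genes. Of the 10, 8 reached 5 FPKM in 1 of the day 5 libraries. Pou4f2 and Isl2 did not, and could not have been called.

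**Figure D1:**
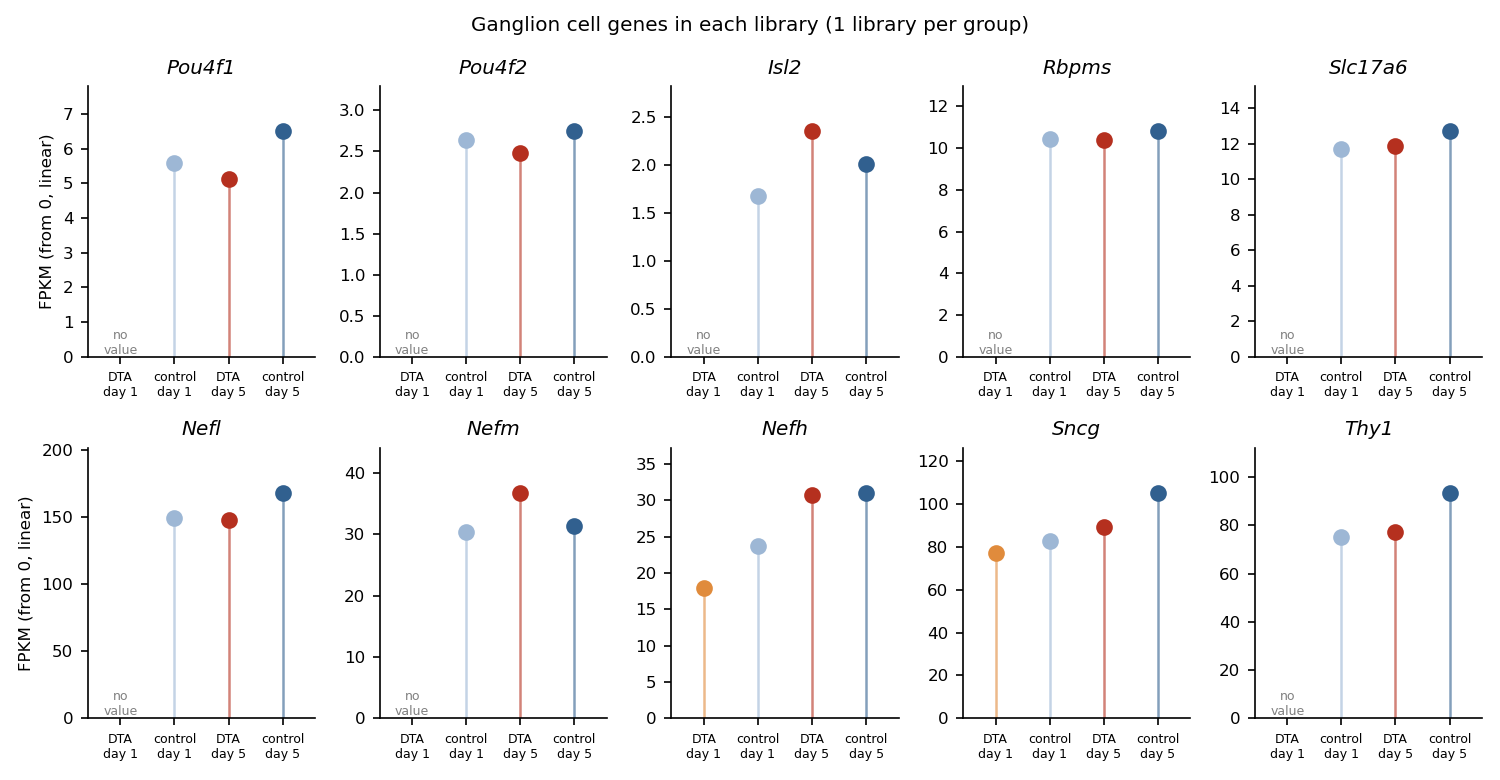
FPKM of the 10 ganglion cell genes in each of the 4 libraries, 1 point per library on linear axes that start at 0, with no value where the gene is not in the day 1 DTA table. The 3 libraries with all 10 genes differ by a ratio of highest to lowest between 1.04 (Rbpms) and 1.40 (Isl2), and the day 5 control is the highest of them for 8 genes.

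Among the factors, Pou4f1 (chromosome 14, 104861541 to 104867216, mm9) stood at 5.12 FPKM in day 5 DTA, against 6.51 and 5.59 FPKM in the day 5 and day 1 controls. The day 5 DTA library was the lowest of the 3, and the day 5 difference was -0.30. Pou4f2 (chromosome 8, 80956908 to 80960551) stood at 2.48 FPKM in day 5 DTA, against 2.75 and 2.64 FPKM in the day 5 and day 1 controls. It too was lowest in day 5 DTA, and its day 5 difference was -0.11.

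Isl2 (chromosome 9, 55388956 to 55393985), a LIM homeodomain factor of ganglion cells that helps set the crossing of their axons in the developing visual system, stood at 2.36 FPKM in day 5 DTA, against 2.01 and 1.68 FPKM in the day 5 and day 1 controls. It was 1 of 2 genes that stood highest in day 5 DTA. Its day 5 difference of 0.16 was close to its difference of 0.17 between the controls. The ratio of Pou4f1 to Pou4f2, which no scaling of a library can alter, was 2.06 in day 5 DTA, 2.37 in the day 5 and 2.12 in the day 1 control.

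Rbpms, the RNA-binding protein whose antibody is widely used to count ganglion cells (chromosome 8, 34893116 to 35040313), stood at 10.4 FPKM in day 5 DTA, against 10.8 and 10.4 FPKM in the day 5 and day 1 controls. The 3 values span a ratio of 1.04, the narrowest of the 10 genes. Its day 5 difference was -0.05. Slc17a6 encodes VGLUT2, which loads glutamate into synaptic vesicles (chromosome 7, 58877200 to 58926496). It stood at 11.9 FPKM in day 5 DTA, against 12.7 and 11.7 FPKM in the day 5 and day 1 controls, so day 5 DTA lay between the controls.

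A pair of promoter stretches is shown because they hold binding letters of factors discussed here: the consensus bound by POU4F factors, and the cAMP response element, a site of the ATF and CREB family. Promoters of 250 bases before to 50 after the start were found for 5 of the 10 genes (6 promoters, RefSeq, GRCm38.p6), namely Pou4f1, Pou4f2, Isl2, Slc17a6 and Sncg. The POU4F consensus ATAATTAAT, searched on both strands, occurred in 0.274% of 32851 promoters. Of the 6 promoters it occurred in 1, at the second start of Slc17a6 (chr7:51624387-51624686, plus strand), where it reads ATTAATTAT on the strand printed. The element TGACGTCA occurred in 1.79% of all promoters and in that of Isl2 (chr9:55540899-55541198, plus strand). The AP-1 letters TGANTCA, on both strands, occurred in 7.81% of all promoters and in none of the 6, and the TATA box letters TATAAA, on the sense strand, in 8.32% and in none of the 6. Capitals mark the matched letters, which are a description of the sequence and not evidence of binding.
Slc17a6: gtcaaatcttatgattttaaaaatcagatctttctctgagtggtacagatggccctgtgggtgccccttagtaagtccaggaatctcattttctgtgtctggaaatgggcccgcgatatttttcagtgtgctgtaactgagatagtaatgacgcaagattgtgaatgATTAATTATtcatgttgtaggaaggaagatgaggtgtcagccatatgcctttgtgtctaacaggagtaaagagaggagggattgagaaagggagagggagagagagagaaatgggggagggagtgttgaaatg
Isl2: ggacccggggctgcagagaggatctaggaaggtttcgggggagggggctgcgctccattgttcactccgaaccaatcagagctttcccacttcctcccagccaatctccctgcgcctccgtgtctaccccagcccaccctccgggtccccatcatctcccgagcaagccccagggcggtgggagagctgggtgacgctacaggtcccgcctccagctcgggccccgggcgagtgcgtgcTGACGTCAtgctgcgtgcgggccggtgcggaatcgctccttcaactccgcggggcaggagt

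Neurofilament genes encode the light, medium and heavy subunits that assemble into the filaments of large axons. Nefl (chromosome 14, 68701941 to 68705794) stood at 148 FPKM in day 5 DTA, against 168 and 149 FPKM in the day 5 and day 1 controls. Nefm, its neighbour at a distance of 31807 bases (68737602 to 68743061), stood at 36.8 FPKM in day 5 DTA, against 31.4 and 30.3 FPKM in the day 5 and day 1 controls. The neighbours thus differed in sign at day 5, with -0.19 for Nefl and 0.22 for Nefm. Nefm was the other gene that stood highest in day 5 DTA.

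Nefh (chromosome 11, 4838759 to 4848067) stood at 30.7 FPKM in day 5 DTA, against 31.1 FPKM in its control. In the day 1 libraries it stood at 17.9 FPKM in DTA, against 23.7 FPKM in the control. Its day 5 difference was -0.02, and it differed by 0.37 between the controls, the most of the 10 genes. Nefh shares 544 bases of its locus with Ap1b1 on the opposite strand, whose own differences were 0.24 at day 1 and 0.82 at day 5. Fragments in the shared bases cannot be assigned with certainty, since no source used here says whether the counting used strand. The same holds for Nefl, which a Nefm model on the opposite strand covers in the GENCODE M1 annotation, and for Rbpms, which there covers Gm17578 on the opposite strand.

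The make-up of the neurofilament transcripts differed by a few percentage points. Nefm made up 17.1% of the summed FPKM of the 3 genes in day 5 DTA, against 13.6% and 15.0% in the day 5 and day 1 controls. Nefl made up 68.6%, against 72.9% and 73.3% in the same controls. The ratio of Nefm to Nefl was 0.249 in day 5 DTA, against 0.187 and 0.204 in the day 5 and day 1 controls. In these shares and this ratio of Nefm and Nefl, day 5 DTA lay outside the span of the controls, by more than the controls differed from each other. This did not hold for Nefh. It made up 14.3% in day 5 DTA, against 13.5% and 11.7% in the day 5 and day 1 controls, which differed by more. The ratio of Nefh to Nefm, 0.835 in day 5 DTA, lay between the 0.989 and 0.783 of the same controls. With 1 library per group this is a description without a replicate check.

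Sncg, gamma synuclein (chromosome 14, 35183460 to 35187855), stood at 89.1 FPKM in day 5 DTA, against 105 and 82.8 FPKM in the day 5 and day 1 controls. Thy1, a surface protein held by a lipid anchor (chromosome 9, 43851467 to 43856662), stood at 77.2 FPKM in day 5 DTA, against 93.5 and 75.3 FPKM in the day 5 and day 1 controls. For both genes day 5 DTA lay between the controls. The day 5 differences were -0.24 for Sncg and -0.27 for Thy1, and the differences between the controls, 0.34 and 0.31, were larger in size. The ratio of Sncg to Thy1 was 1.15 in day 5 DTA, 1.13 in the day 5 and 1.10 in the day 1 control.

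In order of FPKM the genes ran Nefl, Sncg, Thy1, Nefm, Nefh, Slc17a6, Rbpms, Pou4f1, Pou4f2 and Isl2, and this order was the same in all 3 libraries that hold them. Some neighbours in the order were not apart beyond the authors' confidence intervals. Those of Sncg and Thy1 and those of Slc17a6 and Rbpms overlapped in all 3 libraries. Those of Nefm and Nefh overlapped in the day 5 control, at 31.4 and 31.1 FPKM, and those of Pou4f2 and Isl2 overlapped in both day 5 libraries.

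The authors' intervals had half-widths between 1.61% of the FPKM, for Nefl in the day 1 control, and 22.3%, for Isl2 in the day 5 control. Spread between animals is no part of them. The day 5 DTA and day 5 control intervals overlapped for 5 genes, Rbpms, Pou4f2, Slc17a6, Nefh and Isl2. They did not overlap for Pou4f1, Sncg, Nefl, Nefm and Thy1. For Sncg, Nefl, Nefm and Thy1 the deposited upper bound lies below the FPKM itself in all 3 libraries that hold the 10 genes. For Sncg it does so in day 1 DTA as well. Over all lines with status OK, this held for between 10.4% (day 5 control) and 24.0% (day 1 DTA). The intervals of these 4 genes thus do not describe the FPKM they stand beside. The overlaps of Sncg with Thy1 and of Nefm with Nefh rest on such bounds.

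Of the 10 day 5 differences 8 were below 0 and 2 above, with a median of -0.10. Over all 9895 genes that could be called the median was 0.26, and all 10 genes stood below it, although Pou4f2 and Isl2 are not among the callable genes. The floor was reached by 9635 genes in day 5 DTA and by 8853 in the day 5 control. The 9895 thus include genes that reached it in day 5 DTA only, all of them higher there. With no floor the median of all genes was 0.06, and 8 of the 10 stood below it. With the nearer interval ends a difference is set to 0 where the intervals overlap, as they did for 5 of the 10 genes. The median of all genes was then 0.04, and 9 of the 10 stood below it, those 5 by this rule alone. Between the controls, day 5 minus day 1, the same 10 genes were all above 0, with a median of 0.17 and a range of 0.04 to 0.37. The median of all 9321 genes there was -0.06, and 2.57% of them were called (0.858% higher and 1.72% lower), none among the 10. At a size of 0.5 it was 7.28% of them and again none of the 10. Both comparisons contain the day 5 control. Against the day 1 control, 4 of the 10 genes were below 0 and 6 above in day 5 DTA, with a median of 0.03 beside 0.20 for all genes, and 7 of the 10 stood below that.

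**Figure D2:**
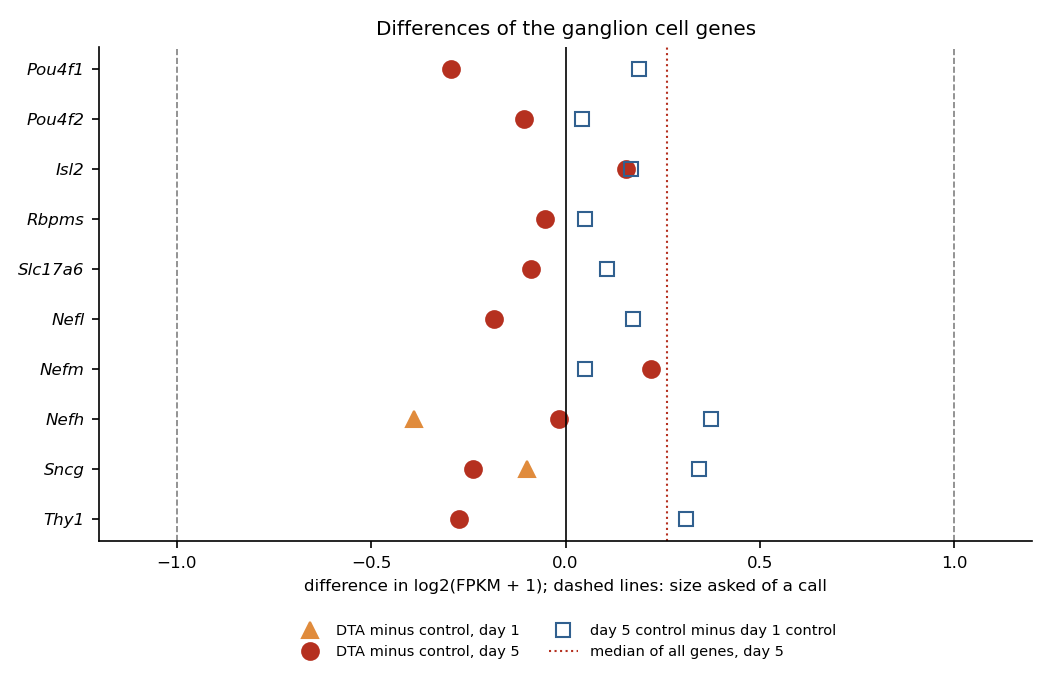
Differences in log2(FPKM + 1) of the 10 ganglion cell genes for day 5 DTA minus control (circles), day 1 DTA minus control (triangles, 2 genes) and day 5 control minus day 1 control (open squares), with the size of 1 asked of a call (dashed) and the day 5 median of all genes (dotted). No symbol reaches a dashed line, and the largest in size is -0.39, Nefh at day 1.

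The sign of these small differences depended on the scale. FPKM are shares of a library, and 10 of 16 rod genes were called lower at day 5, beside 1.77% of all callable genes. The part of the rod genes in the differences was not tested. Scaling by the median ratio of all genes lowered day 5 DTA by 0.24 on the log2 scale. All 10 differences were then below 0, with a median of -0.30 and Thy1 lowest at -0.51. Scaling to the FPKM sum without photoreceptor and abundant genes gave a median of -0.26, with 8 genes below 0. Setting the median of bipolar and amacrine cell genes to 0 gave a median of 0.05, with 4 genes below 0 and 6 above. No gene of the 10 was called under any of these. Pou4f1 and Nefl were below 0 under each of these scalings, against the day 1 control and the mean of both controls, and with the nearer interval ends. The value nearest to 0 was -0.04 for Pou4f1 and -0.01 for Nefl. The rest of the 15 alternative settings could not change the sign of these genes.

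**Figure D3:**
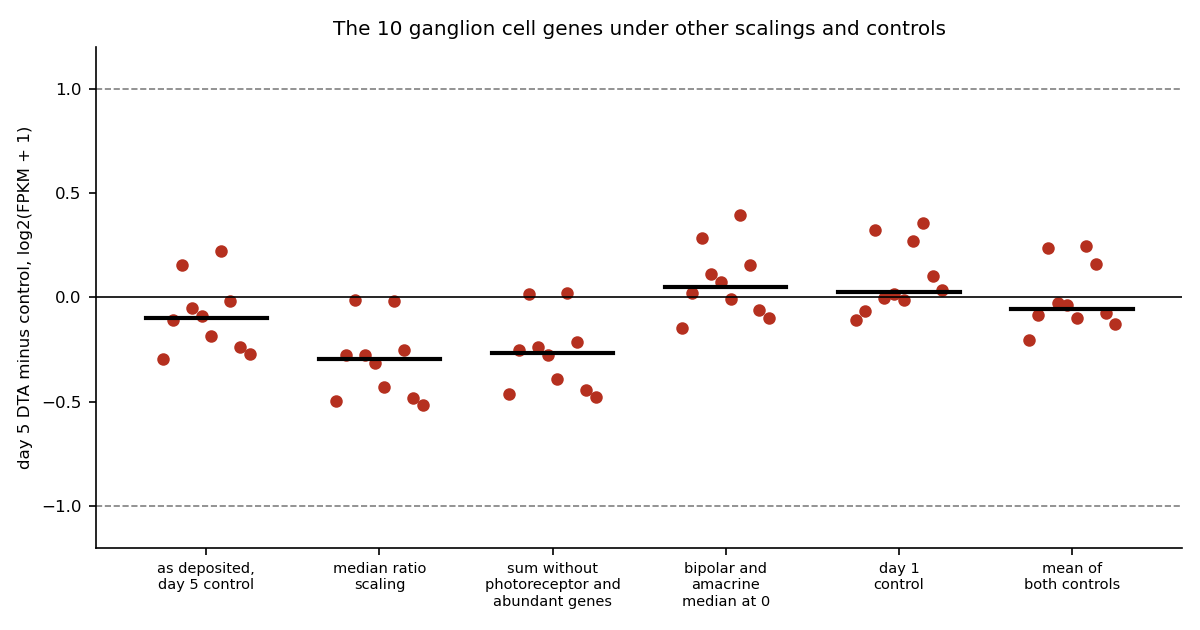
Day 5 difference of each of the 10 ganglion cell genes (points, log2(FPKM + 1)) and their median (bars), as deposited, under 3 scalings and against other controls. Medians run between -0.30 and 0.05, and no point reaches the dashed lines at 1 and -1.

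At day 1 both genes with a value were below 0, and neither was called, where 2.67% of 2623 genes were, 2.06% higher and 0.61% lower. At a size of 0.5, 6.79% were, and again neither of the pair. Nefh stood at 17.9 FPKM in DTA, against 23.7 FPKM in the day 1 control, a difference of -0.39. Its value was the lowest of all 4 libraries, and 3.39% of all genes had a lower difference. The difference was only slightly larger in size than the 0.37 between the controls. Sncg stood at 77.3 FPKM in day 1 DTA, against 82.8 FPKM in the day 1 control, a difference of -0.10. Against the day 5 control the differences were -0.76 for Nefh and -0.44 for Sncg. The ratio of Nefh to Sncg was 0.231 in day 1 DTA, against 0.287 in its control, and 0.345 in day 5 DTA, against 0.295 in its control.

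From day 1 DTA to day 5 DTA, Nefh differed by 0.75 and Sncg by 0.20, day 5 minus day 1. The corresponding differences between the controls were 0.37 and 0.34. The day 5 difference minus the day 1 difference was 0.37 for Nefh and -0.14 for Sncg. No test of these differences was possible with 1 library per group.

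Further genes of ganglion cells and their axons were described from 8 lists, each beside the same 8.51% of callable genes called at day 5. Among 28 further ganglion cell transcription factors 6 reached the floor of 5 FPKM and could be called, and none of these was. The median difference of the 28 was -0.07. Pou4f3, the third BRN3 factor, stood at 1.10 FPKM in day 5 DTA, against 2.23 FPKM in the day 5 control, a difference of -0.62 under the floor. Isl1, a LIM homeodomain factor also active in bipolar cells, differed by 0.37 and Barhl2 by 0.40. Both had differed by more between the controls, with -0.64 and -0.79.

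Among 32 genes enriched in ganglion cells the median was -0.07. Of the 21 that could be called, none was called lower and 2 were called higher. Spp1, osteopontin, stood at 25.9 FPKM in day 5 DTA, against 7.88 FPKM in the day 5 control, a difference of 1.60. Spp1 is also made by activated phagocytes. Of 11 microglia and macrophage markers 8 could be called and were called higher in the same comparison, beside 6.74% of all callable genes. None of the 11 reached 5 FPKM in either control. The 8 thus passed the floor only through day 5 DTA and could not have been called lower. The list sum was 147 FPKM in day 5 DTA and 20.5 FPKM in the day 5 control. The part of these cells in the Spp1 value was not tested. Kcng4, a potassium channel subunit of alpha ganglion cells, stood at 14.4 FPKM in day 5 DTA, against 6.35 FPKM in the day 5 control. Its difference of 1.07 was below 1 with a pseudocount of 5 (0.77), under median ratio scaling (0.84), without photoreceptor and abundant genes (0.88), against the day 1 control (0.98) and with the nearer interval ends (0.82).

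Calca, which encodes the neuropeptide CGRP, stood at 4.86 FPKM in day 5 DTA, against 0.386 FPKM in the day 5 control, and missed the floor of 5 FPKM. At the other end of the list, Chrna6, a nicotinic receptor subunit of ganglion cells, stood at 22.2 FPKM in day 5 DTA, against 36.0 and 31.6 FPKM in the day 5 and day 1 controls. Its difference was -0.67, and that of Jam2, an adhesion molecule of a direction-selective ganglion cell type, was -0.70. Neither was called at a size of 1. Both were called lower at a size of 0.5, where 31.1% of all callable genes were called in either direction. Jam2 stood at 15.1 FPKM in day 5 DTA, against 25.2 and 32.2 FPKM in the day 5 and day 1 controls, and was called lower when set against the day 1 control (-1.05).

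Of 18 genes of the axon cytoskeleton and outgrowth, all of which could be called, 1 was, and the median was -0.11. Prph encodes peripherin, an intermediate filament of the same family as the neurofilaments. It stood at 7.92 FPKM in day 5 DTA, against 0.929 and 0.901 FPKM in the day 5 and day 1 controls. Its difference of 2.21 was called higher in all settings except a floor of 10 FPKM. Ina, alpha internexin, which joins neurofilaments, stood at 33.4 FPKM in day 5 DTA, against 39.1 FPKM in the day 5 control. Gap43, a growth cone protein, differed by 0.47.

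Of 19 genes of the axon initial segment, node and axonal transport 18 could be called and none was, with a median of -0.03. Sarm1, the enzyme that drives axon degeneration, stood at 18.3 FPKM in day 5 DTA, against 27.3 FPKM in the day 5 control, a difference of -0.55. Kif5b, a kinesin motor, differed by 0.65. At a size of 0.5 Sarm1 was called lower and Kif5b higher. Of 11 adhesion genes 8 could be called and none was, and 9 of the 11 were below 0, with a median of -0.18, Negr1 at -0.41 and Lsamp at -0.38.

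Of 17 genes of glutamate release 15 could be called and 1 was, and the median was -0.10. Slc17a7, the transporter VGLUT1 of photoreceptors and bipolar cells, was called lower, at 266 FPKM in day 5 DTA, against 584 FPKM in the day 5 control. Its difference of -1.13 stood beside -0.09 for Slc17a6, the ganglion cell transporter. The call ended against the day 1 control (-0.93) and with the bipolar and amacrine median at 0 (-0.95). Syt1, a calcium sensor of vesicle release, differed by 0.34 and Rims1 by -0.32.

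Genes that respond to axon injury were the list with the highest median at day 5 among the 8 lists of ganglion cell and axon genes, 0.45. Over the genes of the list that could be called it was 0.47, beside 0.26 for all callable genes. Of the list, Atf3, Bbc3, Bcl2l11 and Flrt3 reached 5 FPKM at day 5 in DTA only, so they could not have been called lower. Both medians thus count genes let in by a high DTA value. Of 25 genes 18 could be called, and 5 were called higher and none lower. Atf3, a stress-induced factor, stood at 42.7 FPKM in day 5 DTA, against 3.76 FPKM in the day 5 control. Jun, its partner in AP-1, stood at 85.6 FPKM, against 11.5 FPKM. Tnfrsf12a differed by 2.56, Bbc3, a p53 target that promotes cell death, by 1.79 and Klf6 by 1.47. The call of Bbc3 ended with a pseudocount of 5 (0.85) and with a floor of 10 FPKM. These genes can be induced in many cell types, and the files do not tell which cells the transcripts came from. The lowest were Npy at -0.41 and Map3k12, the kinase DLK, at -0.38. At day 1, of 8 measured genes of the list 6 could be called, beside 2.67% of all callable genes called. Only Atf3 was called higher, with 8.16 FPKM in DTA against 2.30 FPKM in the control. That call ended with a pseudocount of 5 (0.85), with a floor of 10 FPKM and against the day 5 control (0.95).

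Of 14 neurotrophic receptors and ligands 8 could be called and 1 was, and the median was 0.05. Cntf, ciliary neurotrophic factor, stood at 13.6 FPKM in day 5 DTA, against 2.70 FPKM in the day 5 control, a difference of 1.98. Its receptor subunit Cntfr stood at 15.0 FPKM, against 24.8 FPKM, a difference of -0.69 that was called lower only at a size of 0.5. Ntrk3 differed by -0.18 and Igf1r by 0.21. At day 1 the factor, enriched, cytoskeleton, initial segment, glutamate, adhesion and neurotrophic lists had 11, 6, 6, 9, 5, 1 and 2 genes measured. Of these 4, 4, 6, 8, 4, 1 and 2 could be called. None was, beside 2.67% of all callable genes called at day 1. The day 1 medians of these lists ran from -0.13 for the neurotrophic list to 0.22 for the adhesion list, which is Nrcam alone.

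**Figure D4:**
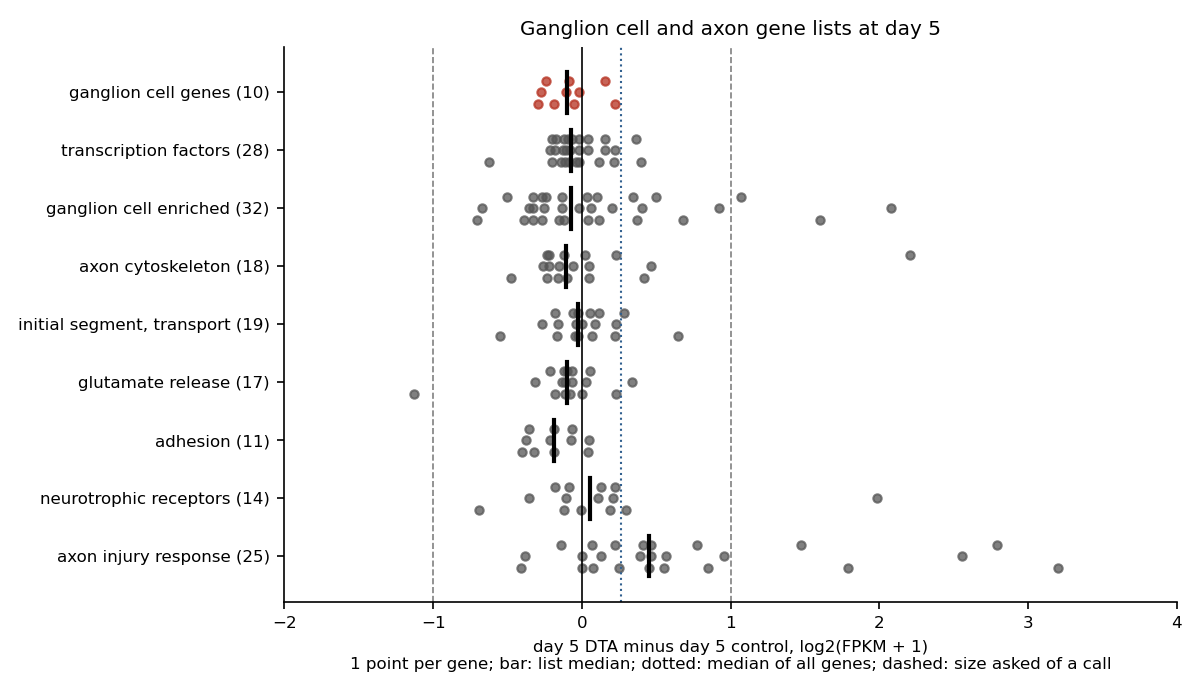
Day 5 DTA minus day 5 control in log2(FPKM + 1) for each gene (points) of the 10 ganglion cell genes and 8 lists, with list medians (bars) and the number of genes in brackets. The ganglion cell genes lie between -0.30 and 0.22, and the points beyond 1 are Prph, Calca, Spp1, Kcng4, Cntf and 5 injury response genes, with Slc17a7 beyond -1.

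The 10 ganglion cell genes, with a median of -0.10, were set beside lists of other retinal cells. Calls in each list stand beside the same 8.51% of callable genes called at day 5, 6.74% higher and 1.77% lower. All 15 bipolar genes could be called and none was (median -0.07). Of 12 amacrine genes 8 could be called and none was (median -0.34, 11 of the 12 below 0). Of 8 horizontal cell genes 4 could be called and none was (median -0.37). The horizontal cell marker Sept4, at -0.83, was called lower at a size of 0.5. It was also called lower under median ratio scaling (-1.07), without photoreceptor and abundant genes (-1.03) and against the day 1 control (-1.03). Photoreceptor lists stood apart, with 10 of 16 rod genes called lower (median -1.53). Of 11 cone genes 10 could be called, and 5 were called lower and 1 higher (median -0.85). Of 11 Müller glia genes 2 were lower and 1, Vim, was higher (median -0.46). Vim stood at 127 FPKM in day 5 DTA, against 54.8 FPKM in the day 5 control, and its call ended under median ratio scaling (0.95), without photoreceptor and abundant genes (0.99), against the day 1 control (0.78) and against the mean of both controls (0.97). Of 6 astrocyte genes 3 could be called and 1, Gfap, was higher. No test of a difference between lists was made.

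**Figure D5:**
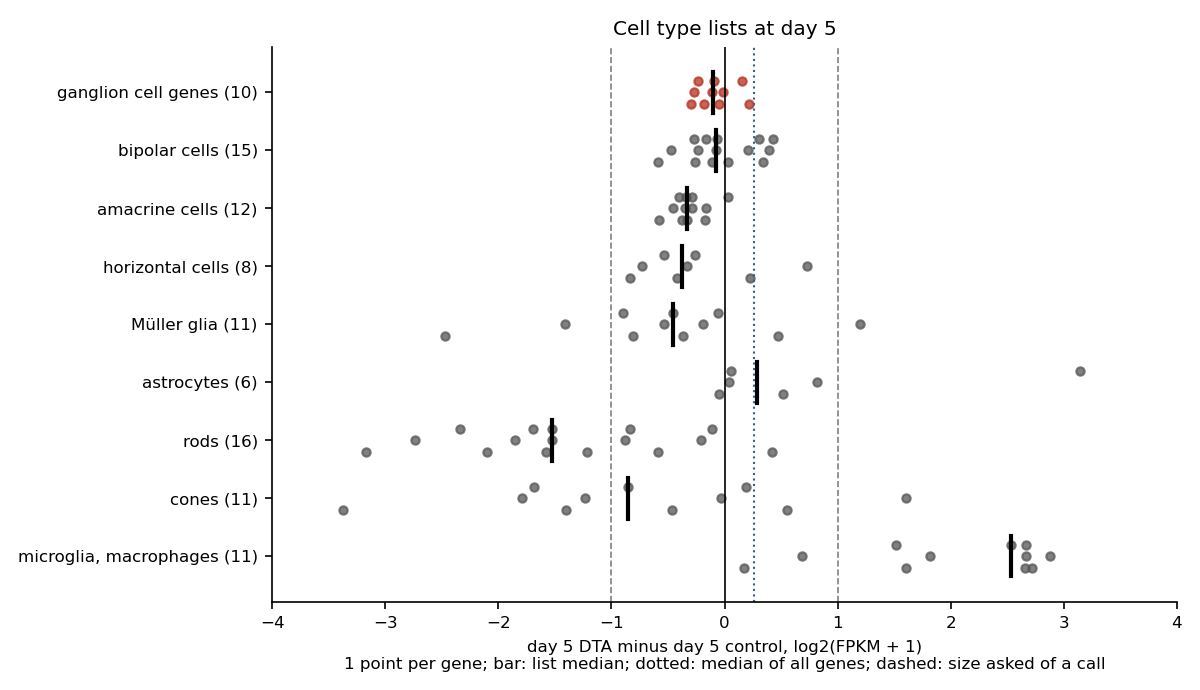
Day 5 DTA minus day 5 control in log2(FPKM + 1) for each gene (points) of the ganglion cell genes and 8 cell type lists, with list medians (bars). The median of the ganglion cell genes is -0.10, that of rods -1.53 and that of microglia and macrophages 2.54.

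Other cells share single genes of the 10, and their markers were read in the same libraries. Of 10 T cell and other leukocyte genes Cd3e, Cd3g and Cd2 were listed at 0 in all 3 full libraries. Of the others, 5 had a day 5 difference above 0 and 2 below. The list sum was 2.39 FPKM in day 5 DTA, against 0.494 and 0.685 FPKM in the day 5 and day 1 controls, beside Thy1 at 77.2, 93.5 and 75.3 FPKM. The 8 pericyte and smooth muscle genes summed to 21.3 FPKM in day 5 DTA, against 17.8 and 10.8 FPKM in the day 5 and day 1 controls, beside Rbpms between 10.4 and 10.8 FPKM. The part of leukocytes in the Thy1 values and of smooth muscle in the Rbpms values was not tested. The 8 horizontal cell genes summed to 113 FPKM in day 5 DTA, against 143 and 173 FPKM in the same controls. At day 5, 6 of them were below 0 and 2 above, from Sept4 at -0.83 to Tpm3 at 0.73. The part of horizontal cells in the neurofilament values was not tested. The 9 oligodendrocyte and optic nerve genes summed to 19.3, 18.0 and 17.8 FPKM in the same order. Of these 2 could be called at day 5 and neither was, beside 8.51% of all callable genes. Lens and pigment epithelium markers differed more between libraries. The 11 lens genes summed to 13.5 FPKM in day 5 DTA, against 232 and 1770 FPKM in the day 5 and day 1 controls, and 10 pigment epithelium genes to 22.8 FPKM, against 47.5 and 182 FPKM. The part of these tissues in the differences of the ganglion cell genes was not tested.

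The depth, read from the most common low value as 1 fragment, was about 98.9 M (mega) fragments in day 1 DTA, 73.3 M in the day 1 control, 28.5 M in day 5 DTA and 35.1 M in the day 5 control. The FPKM sums of the 5783 genes with a value in all 4 libraries lay between 93502 and 101950.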

How the data were processed

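FPKM per gene, with bounds and a status, are the deposited values, per the file headers. The build mm9 and the tools Cufflinks 2.1.1, CASAVA 1.8.2 and bcl2fastq 1.8.4 are given in the submitters' processing notes. No source used here names the aligner or annotation. Retinal RNA was taken with Sepazol and made into mRNA libraries, per the labels' protocols.

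Lines with status FAIL or HIDATA were read as missing, loci of 1 symbol were summed, and locus starts were raised by 1. Differences used log2(FPKM + 1), in Python 3.11.15 with pandas 2.3.3. The calling rule was run on simulated libraries with little noise, in which the changed genes were changed by more than the size asked of a call. This checked the coding of the rule only. It says nothing about smaller changes or spread between animals. The 10 genes and the 22 lists (8 of ganglion cell and axon genes, 14 of cell type markers) were chosen with earlier results of these data known. From each list the rule names genes at 1 FPKM or more: the 2 highest and 2 lowest at day 5, 1 each at day 1, and called genes up to 6. Some of these are not reported here. Ina was chosen after its values were seen. Depth is an estimate, since the files hold no counts.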

Additional observations from a re-analysis of the deposited data

How the results depend on the processing

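No ganglion cell gene was called at either day in any of the 15 alternatives. The day 5 median of -0.10 moved to -0.30 under median ratio scaling. The day 1 median of Nefh and Sncg, -0.24, moved to -0.60 against the day 5 control and to -0.43 against the mean of both controls. In the other alternatives the day 5 median lay between -0.26 and 0.05, the day 1 median between -0.30 and -0.16, and the median between the controls, 0.17, between 0.01 and 0.30. Counts over all genes moved by over 1.5 times. At day 5, 842 calls became 472 with a pseudocount of 5, 3076 at a size of 0.5 and 414 with the nearer interval ends. At day 1, 70 became 46, 178 and 26 in the same order, and 44 with a floor of 10 FPKM. Between the controls, 240 became 679 at a size of 0.5 and 51 with the nearer interval ends. The share of calls that were higher at day 5, 79.2%, was 63.4% under median ratio scaling and 66.0% without photoreceptor and abundant genes. At day 1, 77.1% became 89.5% against the day 5 control and 89.4% against the mean of both controls. Pairing by replicate was not possible, since each group has 1 library and no 2 groups share 2 replicate numbers. No replicate could be left out. A fit of genotype and day over the 4 libraries, which would take the difference between the days' effects as error, was not made.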
